A study of Mus musculus with 70 samples.

Results

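The 9 genes described here are Retnla and a group of mouse genes used to recognise alternatively activated macrophages: Arg1, Chil3, Mrc1, Cd163, Folr2, Mgl2, Clec10a and Il4ra. They were taken by symbol from the 55487 named genes of the count tables of CD45+ cells, each symbol matching 1 gene. CD45, the product of Ptprc, is the pan-leukocyte surface protein on which tumor cell suspensions were flow-sorted, so that CD45+ cells are immune cells and CD45- cells are melanoma and stromal cells. The mice were C57BL/6 of both sexes, 6 to 8 weeks old, and carried a B16F10 melanoma on each flank, grown from injected cells of 1 mouse melanoma line. Control tumors came from mice given sham ablation. In the other mice 1 tumor underwent partial ablation by histotripsy, a focused ultrasound treatment that breaks tissue mechanically (histotripsy-treated), and the tumor on the opposite flank was left alone (histotripsy-abscopal). Tumors were collected at day 3 and at day 7. The CD45+ libraries numbered 4 control, 6 treated and 7 abscopal at day 3, and 10 control, 3 treated and 4 abscopal at day 7. The sex of the mouse, the batch and which libraries shared a mouse, also among the controls, are not given, so none could enter a test. The p-values measure only the spread between these libraries.

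Alternative activation is the state macrophages take under interleukin 4 and interleukin 13. Both cytokines signal through the receptor chain encoded by Il4ra, which activates the transcription factor STAT6, and STAT6 switches on a set of effector genes. Among them, Retnla encodes the secreted resistin-like molecule RELMα (FIZZ1), Chil3 the secreted chitinase-like protein Ym1, and Arg1 the arginine-degrading enzyme arginase. Mrc1 (the mannose receptor CD206), Mgl2 and Clec10a (C-type lectins that bind galactose-type sugars), Cd163 (the haemoglobin scavenger receptor) and Folr2 (folate receptor beta) are surface proteins. In tumors such macrophages are known for tissue repair functions and for restraining T cells. Several of these genes are also transcribed in other myeloid cells: Chil3 in monocytes and neutrophils, Retnla in eosinophils, and Mgl2 and Clec10a in dendritic cells.

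Coordinates are those of GRCm38, the build the authors counted on. Retnla (ENSMUSG00000061100) lies at chr16:48842551-48844461 on the plus strand and Chil3 (ENSMUSG00000040809) at chr3:106147554-106167564 on the minus strand. Mgl2 (chr11:70130329-70137550) and Clec10a (chr11:70156197-70170834) are neighbours on the plus strand, 18646 bases apart. Arg1 lies at chr10:24915221-24927484, Mrc1 at chr2:14229392-14332057, Cd163 at chr6:124304656-124330527, Il4ra at chr7:125552120-125579474 and Folr2 at chr7:101839988-101857194. The promoters of Retnla and Chil3, the members with the largest differences at day 3, are shown because STAT6 and C/EBP factors act at the promoters of alternative activation genes. Both runs come from RefSeq (GRCm38.p6), read along the gene's own strand from 250 bases before the annotated start to 50 bases after it. Capitals mark matches to a STAT6-type palindrome, TTCNNNNGAA, to a C/EBP-type motif, TTGCNNAA, and to the TATA box letters TATAAA.
Retnla, chr16:48842359-48842658, plus strand: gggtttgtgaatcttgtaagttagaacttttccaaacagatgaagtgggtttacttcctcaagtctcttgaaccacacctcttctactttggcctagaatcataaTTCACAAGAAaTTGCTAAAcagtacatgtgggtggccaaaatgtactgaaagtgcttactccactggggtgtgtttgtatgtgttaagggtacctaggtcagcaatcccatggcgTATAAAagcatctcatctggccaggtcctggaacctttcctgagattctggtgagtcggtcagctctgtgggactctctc
Chil3, chr3:106167515-106167814, minus strand: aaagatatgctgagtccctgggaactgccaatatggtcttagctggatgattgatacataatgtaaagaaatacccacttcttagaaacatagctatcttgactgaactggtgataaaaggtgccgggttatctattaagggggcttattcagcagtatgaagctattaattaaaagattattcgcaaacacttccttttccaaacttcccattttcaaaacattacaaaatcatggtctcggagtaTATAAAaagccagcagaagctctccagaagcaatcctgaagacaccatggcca
The Retnla run held the STAT6-type letters TTCACAAGAA starting at position -145 and, 1 base after they end, the C/EBP-type letters TTGCTAAA starting at -134. It also held TATAAA at -30. The Chil3 run held none of the first 2 motifs on either strand and TATAAA at -3. Of the 7 members with a RefSeq promoter (all but Arg1 and Clec10a), Retnla alone held either of the first 2 motifs. For scale, 6.95% of 32841 promoters of this length held the STAT6-type letters on either strand, 10.8% the C/EBP-type letters and 13.6% TATAAA. The matches are letters only, and binding was not measured.

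RNA was read as QuantSeq libraries, which count the ends of transcripts, with molecular identifiers collapsed. The CD45+ libraries held 887798 to 2824959 counts each. Levels are given as CPM (each gene's counts as parts per 1e6 of the library's) scaled by edgeR's TMM factors. Ptprc averaged 889 to 992 CPM over the groups of CD45+ libraries and reached at most 1.54 CPM in CD45- libraries. The 10 macrophage markers were detected in every CD45+ group, and their summed level was 947 to 1794 CPM in treated libraries at day 3 and 1370 to 1515 CPM in control libraries. Neutrophil markers summed to 35770 CPM in treated replicate 3 of day 3 and to at most 8894 CPM in the other 5 treated libraries. Melanoma markers summed to 2140 and 1154 CPM in abscopal replicates 4 and 1 of day 3, against at most 308 CPM in treated libraries of that day. The list was chosen by the CD45+ levels of treated, abscopal and control tumors, above all that of Retnla at day 3, so the day 3 values of the members in CD45+ cells are a description without a test. The rule covers the CD45+ levels of day 7 too, so the day 7 tests of members are not independent of that choice.

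At day 3 Retnla was read in every CD45+ library, and its level was far higher in treated than in control tumors. The 4 control libraries held 9.26, 17.6, 6.54 and 2.27 CPM, from 6 to 34 counts each. The 6 treated libraries held 292, 168, 96.3, 61.8, 51.8 and 162 CPM, from 84 to 344 counts. Every treated library lay above every control library. The 7 abscopal libraries held 3.97, 5.71, 2.77, 33.0, 139, 13.7 and 31.2 CPM. The abscopal libraries spanned the whole range between the other groups: 3 of 7 were below 6 CPM and replicate 5 lay among the treated libraries. Retnla averaged 8.91 ± 6.45 CPM (SD, n = 4) in control, 139 ± 89.7 CPM (n = 6) in treated and 32.8 ± 48.5 CPM (n = 7) in abscopal tumors. The fitted log2 difference was 3.99 ± 0.89 (SE; a 15.9-fold ratio) for treated against control, 1.96 ± 0.87 for abscopal against control and 2.03 ± 0.61 for treated against abscopal. Without abscopal replicate 5 the last pair became 0.84 and 3.15. The 3 comparisons share libraries and are not independent of each other.

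Chil3 was the other secreted member with separated groups. Control libraries held 115, 116, 163 and 172 CPM. Treated libraries ranged from 194 to 963 CPM with a median of 366, and abscopal libraries from 158 to 410 CPM with a median of 360. Treated and control libraries did not overlap, and of the abscopal libraries the lowest lay within the control range. The log2 difference was 1.67 ± 0.37 for treated against control, 1.16 ± 0.36 for abscopal against control and 0.50 ± 0.30 for treated against abscopal. Reads of Chil3 can be shared with its near copy Chil4: 23.1% of the 31-base words in the last 500 bases of Chil3 transcripts occur in Chil4 too. Chil4 itself was at 0 CPM in all CD45+ libraries except treated ones of day 3, where it reached 1.59 CPM.

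Arg1 varied widely among control libraries, and its order differed from that of Retnla. Control tumors at day 3 held 207, 261, 703 and 1205 CPM. Treated tumors ranged from 307 to 2185 CPM with a median of 443, and abscopal tumors from 120 to 359 CPM with a median of 303. The groups overlapped. Treated replicate 3, the library with the highest neutrophil marker sum, carried the 2185 CPM, and the next treated library held 465 CPM. The log2 difference for treated against control was 0.22 ± 0.53, and it was -0.61 without that library. It was -1.18 ± 0.50 for abscopal against control and 1.39 ± 0.46 for treated against abscopal, the last falling to 0.57 without treated replicate 3.

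The lectin genes Mrc1, Mgl2 and Clec10a had lower average levels in abscopal than in control and treated tumors, with overlap between the groups. For Mrc1, control libraries held 37.1, 48.5, 71.4 and 75.2 CPM, treated libraries 39.1 to 162 CPM (median 79.3) and abscopal libraries 20.3 to 53.5 CPM (median 30.4). For Mgl2, control libraries held 116, 62.0, 39.8 and 60.5 CPM, treated libraries 52.4 to 136 CPM (median 91.1) and abscopal libraries 25.8 to 79.1 CPM (median 34.8). For Clec10a, control libraries held 106, 83.7, 49.9 and 66.9 CPM, treated libraries 51.6 to 108 CPM (median 89.4) and abscopal libraries 21.8 to 63.9 CPM (median 49.3). All 3 genes had their lowest group median in abscopal tumors, and each abscopal range overlapped the control and treated ranges. Abscopal against control, the log2 difference was -0.83 ± 0.30 for Mrc1, -0.59 ± 0.34 for Mgl2 and -0.72 ± 0.27 for Clec10a. Treated against control it was 0.48 ± 0.31, 0.36 ± 0.35 and 0.15 ± 0.28 in the same order. Treated against abscopal it was 1.31 ± 0.27, 0.95 ± 0.30 and 0.87 ± 0.24. Mgl2 and Clec10a are near copies, and 15.1% and 21.8% of the 31-base words at their transcript ends occur in the other gene, so counts can have moved between them.

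Il4ra, the receptor through which the inducing cytokines act, had the tightest levels of the 7 measurable members. Control libraries held 217, 192, 191 and 178 CPM, treated libraries 196 to 298 CPM (median 257) and abscopal libraries 187 to 264 CPM (median 201). The treated group overlapped the control group. The log2 difference was 0.38 ± 0.14 for treated against control and 0.09 ± 0.14 for abscopal against control. The remaining 2 members were too low for a fit. Cd163 lay between 0 and 14.02 CPM over all CD45+ libraries, with the highest value in treated replicate 6 of day 3. Folr2 was read once in all, in 1 abscopal library of day 3 (0.446 CPM), and was at 0 counts in the other CD45+ libraries. The end of Folr2 lies under Gm10602 on the opposite strand (chr7:101836503-101842771), and whether the counting used strand is not stated.

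**Figure D1:**
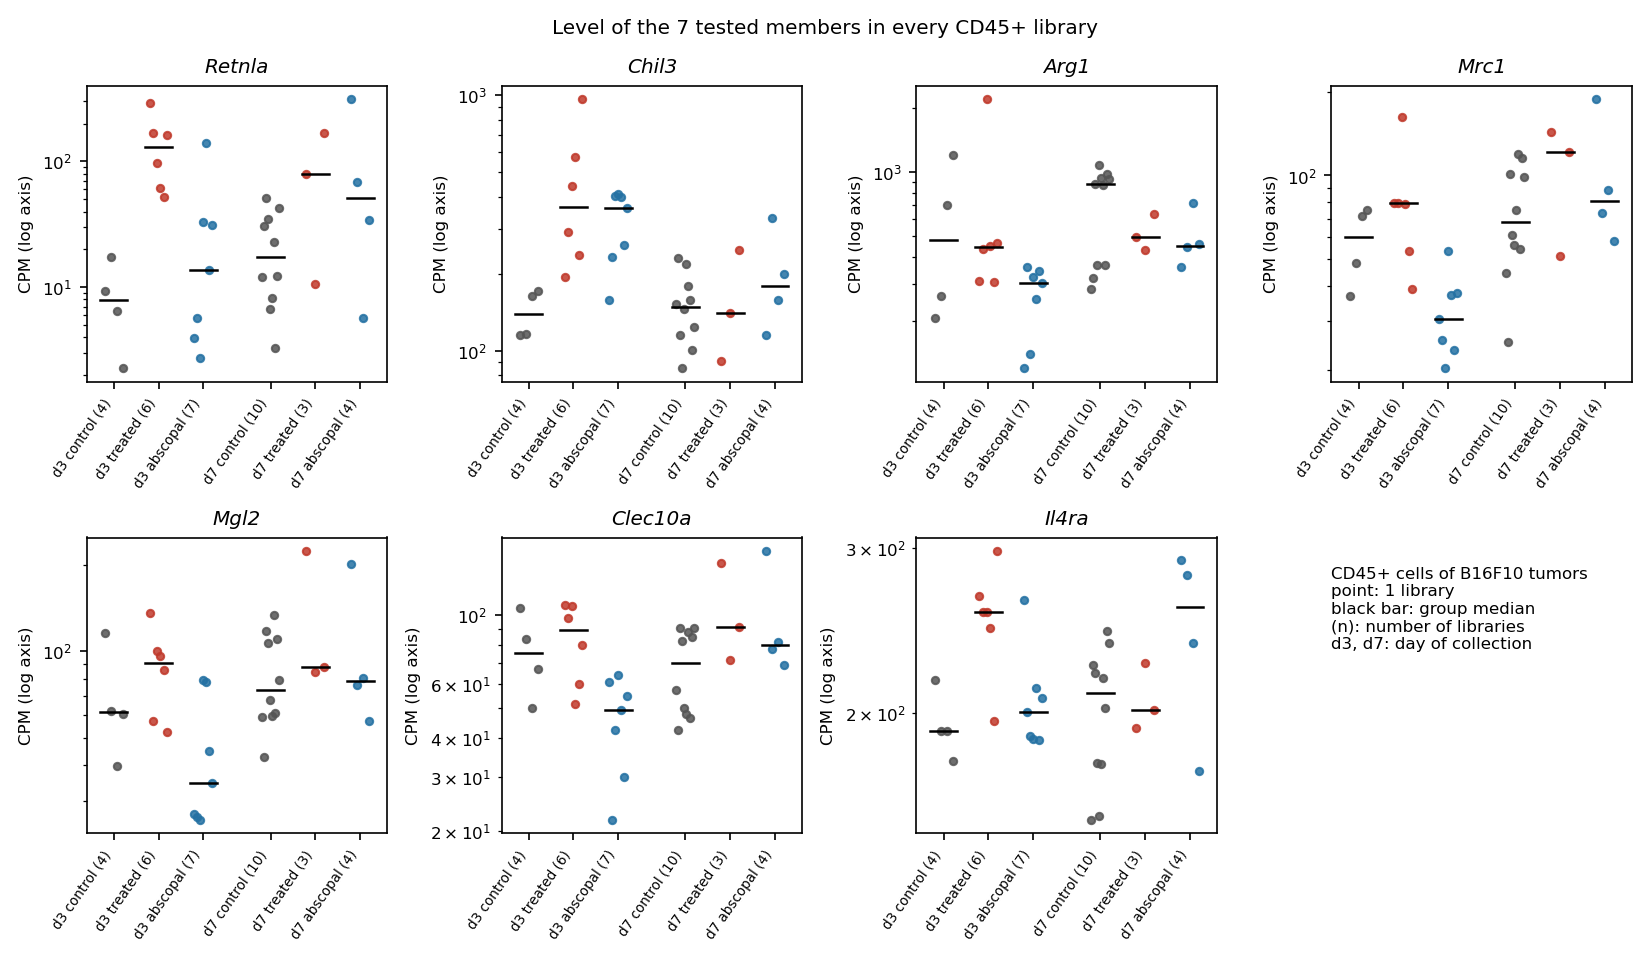
Level of the 7 members that passed the filter in every CD45+ library, in CPM on a log axis, by day and group. Each point is a library and the black bar the group median. Retnla and Chil3 of treated tumors at day 3 lie above all control libraries of that day, and the abscopal libraries of day 3 are the lowest group for Mrc1, Mgl2 and Clec10a.

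Of the 7 members that passed the filter on low counts, 2 (Retnla and Chil3) passed the edgeR threshold for treated against control at day 3, both higher, where 6.22% of the 10264 genes tested did so in that direction. The same 2 had groups that did not overlap, treated above control, against 4.38% of all genes. All 7 fitted differences were above 0, with a median of 0.38 against -0.01 over all genes. Scaled by library totals alone, the median of all genes was -0.225 and Arg1 (-0.14) and Clec10a (-0.08) changed sign. With that scaling the share of higher genes among all genes called went from 79.7% to 38.4%. For abscopal against control, 0 members and 0% of all genes were called, with 796 genes at an unadjusted p under 0.05 and 5 genes called by DESeq2. The members' median was -0.59 there, against 0.01 over all genes. For treated against abscopal, 2 members (Mrc1 and Clec10a) were called higher, where 4.87% of all genes were, and the median of the 7 was 0.95 against -0.03. Without treated replicate 1, 2, 3 or 6 or abscopal replicate 2, 3 or 6 that count was 1, and without treated replicate 5 it was 4. The rule that chose the members rests on the CD45+ levels of all 3 groups, those of day 3 among them, so nothing is read from the counts of members in these comparisons.

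**Figure D2:**
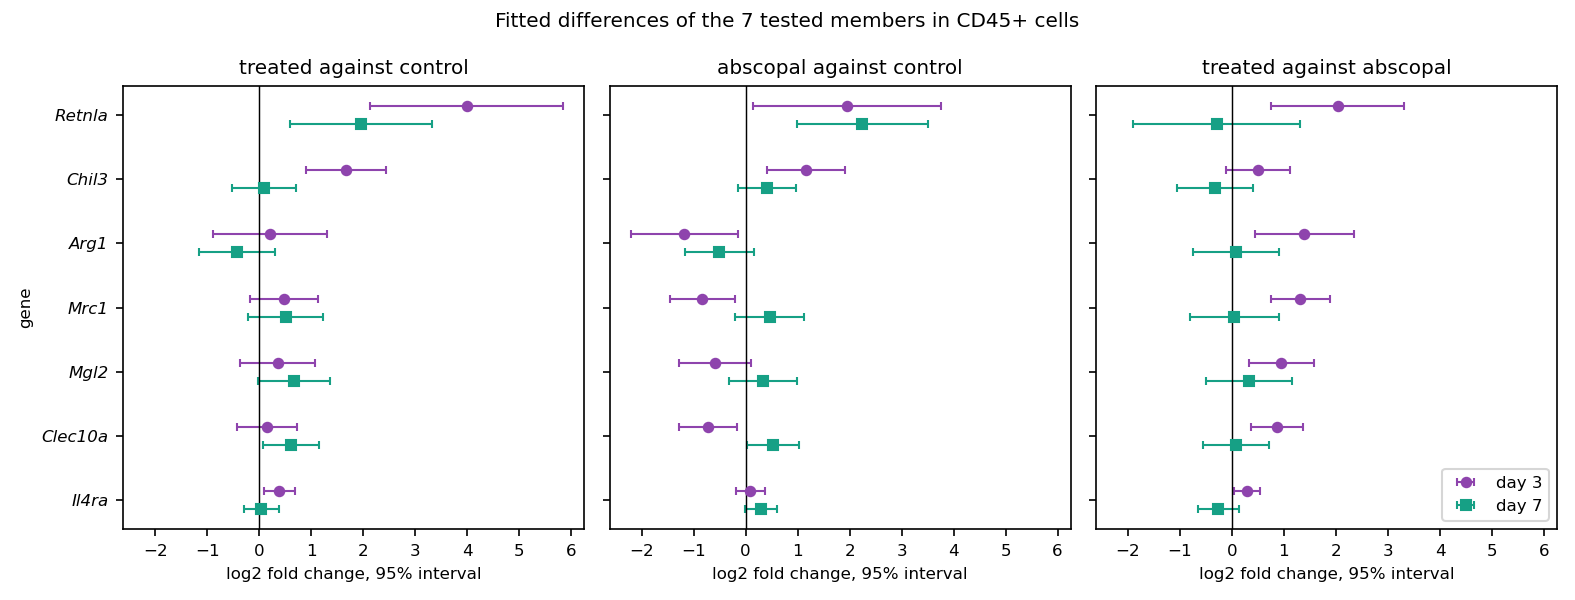
Fitted log2 differences of the 7 members with 95% intervals for treated against control, abscopal against control and treated against abscopal CD45+ cells, at day 3 (circles) and day 7 (squares). Retnla lies furthest from 0 at day 3 in the treated comparison (3.99), and at day 7 its 2 differences from control are 1.96 and 2.24.

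By day 7 Retnla was again higher on average in treated and abscopal tumors than in controls, but the libraries scattered and no member passed the threshold. The 10 control libraries ranged from 3.32 to 51.4 CPM with a median of 17.5. The 3 treated libraries held 79.7, 10.7 and 167 CPM, and the 4 abscopal libraries 311, 68.3, 5.72 and 34.4 CPM. In each of the last 2 groups 1 library lay below the control median, so both overlapped the controls. Retnla averaged 22.5 ± 16.7 CPM (n = 10), 85.9 ± 78.5 CPM (n = 3) and 105 ± 140 CPM (n = 4) in the 3 groups. The log2 difference was 1.96 ± 0.66 for treated against control (95% interval 0.59 to 3.32, adjusted p = 0.9999 by edgeR's quasi-likelihood test), and without treated replicate 3 it was 1.10. For abscopal against control it was 2.24 ± 0.61 (0.98 to 3.51, adjusted p = 0.537), and without abscopal replicate 1 it was 0.62 (adjusted p = 0.959). Treated against abscopal, it was -0.29 ± 0.77 (-1.89 to 1.31, adjusted p = 0.9998), and without that library it was 1.32. Counts of Retnla behind these values were 10 to 403 in treated, 8 to 673 in abscopal and 3 to 112 in control libraries.

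The other members at day 7 differed less from controls, and for each the groups overlapped. Clec10a held 148, 71.6 and 91.8 CPM in treated, 162, 77.9, 82.2 and 68.9 CPM in abscopal and 42.6 to 91.0 CPM (median 69.98) in control libraries. Mgl2 held 224, 84.4 and 88.4 CPM in treated, 201, 76.2, 80.7 and 57.0 CPM in abscopal and 42.6 to 134 CPM (median 73.4) in control libraries. Mrc1 held 144, 51.3 and 121 CPM in treated, 187, 73.6, 88.6 and 58.2 CPM in abscopal and 25.1 to 119 CPM (median 68.2) in control libraries. Replicate 1 of the treated and of the abscopal tumors had the highest level of its group for each of these 3 lectins. Arg1, in contrast, was lower on average than in controls: 495, 433 and 637 CPM in treated, 358, 443, 717 and 461 CPM in abscopal and 285 to 1079 CPM (median 874) in control libraries. Chil3 no longer separated the groups, with 91.2, 140 and 247 CPM in treated, 115, 331, 158 and 200 CPM in abscopal and 85.1 to 230 CPM (median 148) in control libraries. Il4ra held 193, 226 and 201 CPM in treated, 292, 281, 238 and 173 CPM in abscopal and 154 to 245 CPM (median 210) in control libraries. None of these levels set a group apart from the controls.

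For treated against control at day 7, the log2 difference was 0.61 for Clec10a, 0.67 for Mgl2, 0.51 for Mrc1, -0.42 for Arg1, 0.09 for Chil3 and 0.04 for Il4ra. For abscopal against control it was 0.53 for Clec10a, 0.34 for Mgl2, 0.46 for Mrc1, -0.50 for Arg1, 0.41 for Chil3 and 0.30 for Il4ra. Without abscopal replicate 1 the Mgl2 value was -0.22 and the Mrc1 value -0.03. Without treated replicate 1 the treated differences were 0.02 for Mgl2, 0.25 for Clec10a and 0.22 for Mrc1. The median of the 7 members was 0.51 and 0.41, against -0.01 and -0.02 over all genes. None of the members was called in any of the 3 day 7 comparisons, where edgeR called 0% of the 10817 genes tested and DESeq2 called 0 genes. At an unadjusted p under 0.05 there were 344, 800 and 290 genes (treated against control, abscopal against control, treated against abscopal), 2 of them members in each of the first 2 and 0 in the last.

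Ranked by group median, Retnla went from treated at day 3 (129 CPM) through treated at day 7 (79.7), abscopal at day 7 (51.4), control at day 7 (17.5) and abscopal at day 3 (13.7) to control at day 3 (7.90). Each group overlapped the next one in this order. The treated libraries of day 3 overlapped neither set of controls, the lowest of them at 51.8 CPM against a highest control of 51.4 CPM at day 7. CPM were scaled within each day, so the order across days is approximate and this narrow margin is not firm. Between days the control tumors themselves differed by a log2 of 1.34 ± 0.94 in Retnla (adjusted p = 0.956), and none of the 7 members passed the threshold, where 0.00889% of 11251 genes did. Day and deposited table cannot be told apart in that comparison.

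A bulk fraction mixes cell types, and fewer cells of a type and less RNA per cell cannot be told apart in it. Each member was therefore also set against the mean of the 10 macrophage markers in the same library (log2 of CPM + 1). At day 3 the markers themselves did not separate treated from control tumors: 0 of 10 were called, with a median log2 difference of 0.19. Retnla relative to them stood at 0.05 ± 1.01 in treated (n = 6) and -3.66 ± 1.08 in control tumors (n = 4), a difference of 3.71, and the groups did not overlap. For Chil3 the difference was 1.35 and the groups overlapped. For Mrc1 relative to the markers, treated tumors lay above every abscopal tumor, by 1.06 on average. By day 7 the markers summed to 2204 to 2652 CPM in abscopal libraries, above all controls (1105 to 2120 CPM). Treated libraries (1443 to 2224 CPM) overlapped the controls. For abscopal against control 0 of 10 markers were called, with a median log2 difference of 0.39. At day 7 Retnla relative to the markers differed by 1.497 for treated against control (two-sided exact permutation p = 0.0979, adjusted p = 0.622) and by 0.95 for abscopal against control (exact permutation p = 0.316). The first of these was 0.81 without treated replicate 3 and 2.39 without treated replicate 2, and the second 0.09 without abscopal replicate 1 and 1.85 without abscopal replicate 3. Among the others the smallest p was that of Arg1, at -0.84 in abscopal against control (exact permutation p = 0.0280, adjusted p = 0.587 over 21 tests). None of the 21 passed after adjustment, and these tests are not independent of the rule that chose the members. The smallest p these designs allow is 0.00699 for 3 against 10 libraries, 0.00200 for 4 against 10 and 0.0571 for 3 against 4.

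**Figure D3:**
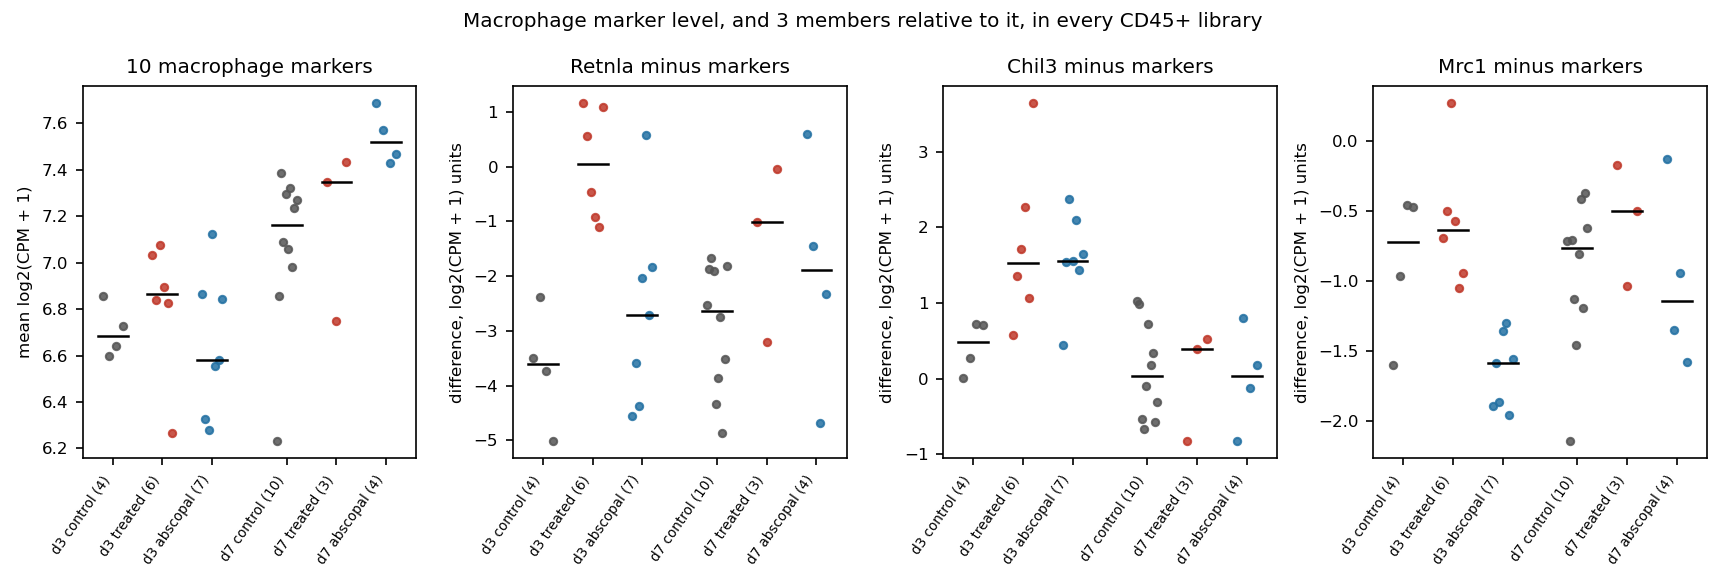
Mean log2(CPM + 1) of the 10 macrophage markers and the levels of Retnla, Chil3 and Mrc1 minus that mean, by library, day and group, with black bars at the medians. The marker mean overlaps between treated and control tumors at day 3, while Retnla relative to it averages 0.05 in treated and -3.66 in control tumors.

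Markers of other myeloid cells and of T cells moved at day 3 as well. T cell markers summed to 358 to 1018 CPM in treated and 1171 to 1505 CPM in control libraries, with 2 of 6 called lower. In treated against control tumors 5 of the 8 neutrophil markers tested were called higher, and the summed list of 10 went from 365 to 2612 CPM in controls to 1307 to 35770 CPM in treated tumors. Of the 7 eosinophil markers 3 could be tested and 2 were called higher: Siglecf by a log2 of 3.04 ± 0.66 (adjusted p = 0.00765) and Ccr3 by 2.33 ± 0.57 (adjusted p = 0.0161). The third, the ribonuclease gene Ear2, differed by -0.71 ± 0.50 (adjusted p = 0.417). The eosinophil list summed to 10.3 to 14.9 CPM in controls and 14.8 to 69.7 CPM in treated tumors, with the granule gene Epx at 0 in both. Treated replicate 1, which had the most Retnla, also had the highest eosinophil sum of its group, and treated replicate 5 had the least of both. Abscopal replicate 5 of day 3 and abscopal replicate 1 of day 7, each the highest in Retnla of its group, also had the highest eosinophil sums of their groups (49.8 and 57.7 CPM). Over the 34 CD45+ libraries, after removing group means, Pearson's r with the eosinophil sum was 0.57 for Retnla (rho 0.51), and with the neutrophil sum it was -0.17 for Retnla and 0.75 for Arg1 (rho 0.68). The eosinophil value was not particular to Retnla: it was 0.54 for Mrc1, 0.49 for Mgl2 and 0.44 for Clec10a. It was 0.27 for Arg1, 0.11 for Il4ra and 0.01 for Chil3. Retnla had an r of 0.25 with the macrophage sum and 0.36 with the monocyte sum. Mrc1 followed the macrophage sum most closely (r = 0.69). These correlations share libraries and depth and are given as a description. The part of these cells in the levels of Retnla and Arg1 was not tested. Without treated replicate 3, the library with the most neutrophil markers, Retnla and Chil3 differed from controls by 4.07 and 1.66. The remaining treated libraries still reached 8894 CPM of neutrophil markers, against at most 2612 CPM in controls. Chil3 had a within-group r of 0.39 with the neutrophil sum, and the part of neutrophils in its level was not tested.

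The members that could be tested, which were chosen from CD45+ cells, had far higher levels there than in CD45- cells. In control tumors 8 of 8 (all but Folr2) were higher in CD45+ than in CD45- cells at both days, where 35.0% of 13387 genes were called higher at day 3 and 42.2% at day 7. Of these 8, all but Il4ra failed the filter on low counts within CD45- cells, so they passed the joint filter through CD45+ libraries. That largely fixed the direction beforehand, so nothing is read from this count. The median log2 difference of the 8 was 9.27 at day 3 and 8.96 at day 7, against 0.07 and 0.08 over all genes. Retnla was read 61 times in the 4 CD45+ control libraries of day 3 and 0 times in the 4 CD45- ones, at least 25.2-fold higher when 3 counts over the group are taken as the floor. At day 7 it was read 426 and 0 times, at least 208-fold higher on the same floor. Among all 36 CD45- libraries Retnla was read once, in an abscopal library of day 3. At day 3 Mgl2 and Clec10a had no count in CD45- controls either, for at least 195-fold and 222-fold higher levels. Arg1 was read 5100 against 5 times and Chil3 1076 against 1 time at day 3. Without CD45+ control replicate 2 the Retnla difference at day 3 was no longer called (adjusted p = 0.0779), and without control replicate 4 that of Cd163 was not (adjusted p = 0.112).

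Il4ra was the only member with enough counts for a test within CD45- cells. It was read 20 times in CD45- controls of day 3 against 1397 times in CD45+ ones, an 86.7-fold ratio of CPM (95% counting interval 55.9 to 142), and 33 against 3532 times at day 7 (156, 111 to 228). At day 3 the CD45- control libraries held 0.639, 7.30, 0.806 and 0.834 CPM and the 7 treated ones 1.05 to 42.1 CPM with a median of 8.10. At day 7 the 11 controls held 0 to 2.49 CPM, the treated libraries 1.38, 2.19 and 24.1 CPM and the abscopal libraries 10.49, 9.58, 1.38 and 6.75 CPM. Higher values thus appeared in some treated and abscopal libraries, with overlap in every comparison. The log2 difference from control was 2.65 ± 0.87 for treated tumors at day 3 (adjusted p = 0.259), 0.34 ± 0.97 for abscopal tumors at day 3 (adjusted p = 0.9998), 2.73 ± 0.64 for treated at day 7 (adjusted p = 0.253) and 2.43 ± 0.59 for abscopal at day 7 (adjusted p = 0.0779). None passed, where 0.0916%, 0%, 0% and 0.291% of all genes did. At day 7 the call depended on the libraries: without treated replicate 1 or 2 the treated difference was 3.29 or 3.20 and passed, and without treated replicate 1 or 3 or abscopal replicate 3 the abscopal one passed at 2.43, 2.43 or 2.80. Without treated replicate 3, the library at 24.1 CPM, the treated difference was 0.45 and did not pass. Ptprc was at 0 in all CD45- treated and abscopal libraries of day 7. Fibroblast markers also differed in median between groups of the CD45- fraction, and their relation to Il4ra by library was not computed. The 6 summed to 17.1 to 1084 CPM (median 190) in control, 53.8 to 14019 CPM (median 2104) in treated and 144 to 801 CPM (median 522) in abscopal libraries at day 3. At day 7 the sums were 16.3 to 769 CPM (median 59.2), 88.8 to 4009 CPM (median 215) and 68.1 to 2498 CPM (median 889) in the same order. All 6 were detected in every group, and their part in the Il4ra levels was not tested.

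Other genes of alternative activation were taken as a list of 81, of which 58 passed the filter at day 3. In treated against control tumors 10 of them rose and 0 fell, with a median log2 difference of 0.32 over the 58, against -0.01 over all genes and 6.22% of all genes called higher. Without treated replicate 2, control replicate 3 or control replicate 4, 6 rose. By role, 2 of 3 ligands, 1 of 7 receptors, 1 of 9 signalling genes, 2 of 11 transcription factors, 1 of 11 secreted targets, 3 of 8 enzymes and 0 of 9 surface proteins rose. The largest rise was that of Chil1, a chitinase-like relative of Chil3, from 3.26 ± 1.12 CPM (n = 4) to 52.0 ± 56.8 CPM (n = 6), a log2 difference of 3.86 ± 0.71 (adjusted p = 0.00288). Alox15, the lipoxygenase of alternatively activated macrophages and eosinophils, rose by 3.10 ± 0.83 (adjusted p = 0.0249), from 2.18 to 20.6 CPM. Leaving out treated replicate 1 or 2 or control replicate 1, 3 or 4 left Alox15 uncalled (adjusted p from 0.0509 to 0.0901). Ptgs1, a prostaglandin synthase, rose by 3.01 ± 0.55 (adjusted p = 0.00269) and Csf1, the macrophage growth factor, by 2.26 ± 0.50 (adjusted p = 0.00881). The other 6 were the ligand Il10, the interleukin 33 receptor gene Il1rl1, the adaptor Irs2, the transcription factors Cebpb and Klf4, and the transglutaminase Tgm2. The fold was smaller for these, from 0.69 for Cebpb to 1.81 for Il1rl1 on the log2 scale.

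Of the genes upstream of Retnla, Cebpb passed, as given above, and Stat6 did not. Stat6 ranged from 38.2 to 50.9 CPM in controls and from 33.9 to 84.4 CPM in treated tumors at day 3 (log2 difference 0.32, adjusted p = 0.340), and Irf4, a STAT6 target, differed by 0.34 (adjusted p = 0.387). The cytokine genes were near the limit of detection. Il4 lay between 0 and 2.38 CPM in all CD45+ libraries. Il13 lay between 0.796 and 10.2 CPM in treated tumors (median 3.54) and between 0 and 2.58 CPM in controls at day 3, and was too low for the day 3 fit. Pparg, another regulator of this state, lay between 0 and 3.19 CPM in treated and between 3.61 and 7.18 CPM in control libraries and was not in that fit either. In a joint fit of both days the treated difference at day 3 was 2.54 for Il13 and -2.05 for Pparg. Neither changed between days past the threshold (edgeR interaction term, adjusted p = 0.847 and 0.132). Nos2, the arginine-using enzyme of classically activated macrophages, differed by -0.98 (adjusted p = 0.430). Retnlg, the neutrophil relative of Retnla, differed by 2.11 (adjusted p = 0.106), and 2.55% of the 31-base words at the end of Retnla transcripts occur in it.

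In abscopal against control tumors at day 3, edgeR called 0 of the 58 list genes (6 at an unadjusted p under 0.05, 1 called by DESeq2), with a median of 0.02 (0.01 over all genes). In treated against abscopal tumors 9 rose and 0 fell, with a median of 0.28 against -0.03, where 4.87% of all genes were called higher. Chil1 rose by 3.25 ± 0.53 (adjusted p = 0.00119), Csf1 by 2.24 ± 0.41 (adjusted p = 0.00228), Ptgs1 by 2.34 ± 0.41 (adjusted p = 0.00179) and Pf4, a platelet and macrophage chemokine, by 2.45 ± 0.56 (adjusted p = 0.0109). Without treated replicate 3 the count was 4, and Pf4 was not among the called genes (adjusted p = 0.0644). The other 5 were Fn1, Tgm2, Il13ra1, Egr2 and Alox15. At day 7, 60 list genes could be tested, and edgeR and DESeq2 called 0 in each of the 3 comparisons, with medians of 0.05, 0.04 and 0.03 and with 5, 10 and 4 genes at an unadjusted p under 0.05.

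Whether the treated effect differed between days was tested for the list genes in a fit over both days, where 2.70% of 11251 genes were called different. The list held 5 such genes, all with a smaller effect at day 7. Chil1 went from 3.85 at day 3 to -0.56 at day 7 (difference -4.41, adjusted p = 0.0140), Csf1 from 2.24 to -0.63 (-2.87, adjusted p = 0.0271) and Ptgs1 from 2.996 to 0.254 (-2.74, adjusted p = 0.0271). Tgm2 went from 1.19 to -0.21 (-1.40, adjusted p = 0.00926) and Klf4 from 0.83 to -0.18 (-1.01, adjusted p = 0.0444). For the abscopal effect 0% of all genes differed between days. Set beside these, the difference of Retnla from control was 3.99 at day 3 and 1.96 at day 7, and that of Chil3 1.67 and 0.09. The change between days was not tested for members, because the day 3 values chose Retnla.

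The members did not vary as a block. Within groups, over the 34 CD45+ libraries, the lectins went together: Pearson's r was 0.67 for Mgl2 with Clec10a, 0.61 for Mrc1 with Mgl2 and 0.59 for Mrc1 with Clec10a. Retnla went with 2 of them, at 0.54 with Clec10a and 0.53 with Mgl2. It had an r of 0.02 with Chil3 and -0.05 with Arg1. Arg1 went with Mrc1 (0.59), and Chil3 had a negative r with Clec10a (-0.37) and Mgl2 (-0.36). The correlation of Mgl2 with Clec10a can also include reads moved between these near copies, which was not measured.

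**Figure D4:**
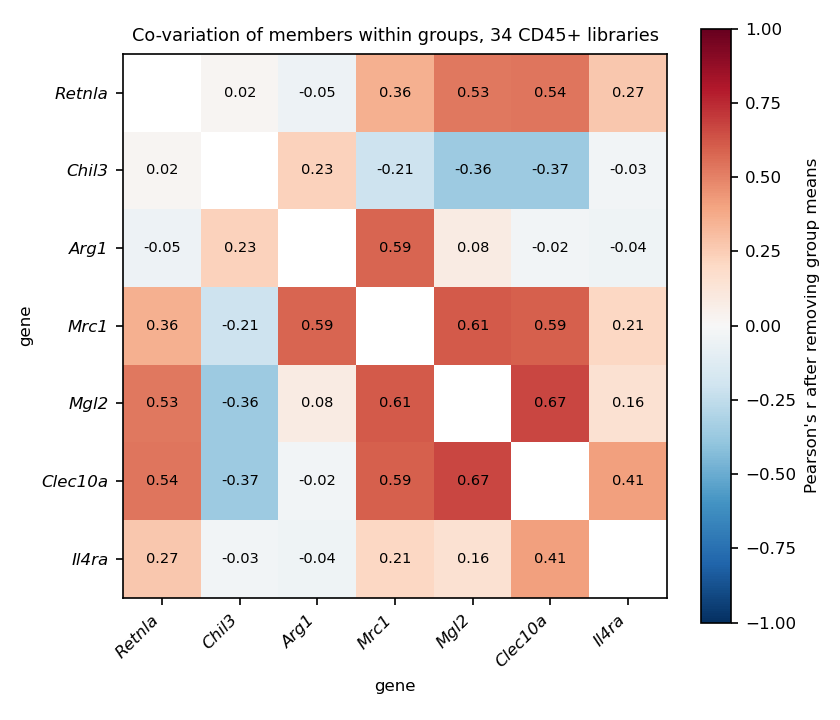
Pearson's r between the log2 levels of each pair of the 7 members over 34 CD45+ libraries after removal of group means, as a colour scale from -1 to 1 with the value in each cell. Mgl2, Clec10a and Mrc1 form the most positive block (0.59 to 0.67), and Chil3 is negative against Mgl2 and Clec10a.

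Over all 34 CD45+ libraries and 8257 genes with a mean of at least 10 CPM, the gene most like Retnla was F5, coagulation factor V, with r = 0.83 (0.75 after removing group means). F5 averaged 7.42 CPM in control, 60.2 CPM in treated and 20.3 CPM in abscopal tumors at day 3, and 15.9, 26.8 and 28.2 CPM at day 7. Next came Fgfr1, a fibroblast growth factor receptor (0.77, within groups 0.67), Fosl2, an AP-1 transcription factor (0.71, 0.56), Alox5ap, the activating protein of leukotriene synthesis (0.71, 0.48), and Pxn, the focal adhesion protein paxillin (0.68, 0.43). The other members ranked lower: Clec10a had rank 43, Mgl2 rank 55, Il4ra rank 94, Mrc1 rank 206, Chil3 rank 1010 and Arg1 rank 3503.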

How the data were processed

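The authors sequenced QuantSeq libraries, trimmed reads with Trim Galore 0.5.0, aligned them to GRCm38 with STAR 2.6.0, collapsed molecular identifiers with Lexogen's tool and counted reads per gene with featureCounts. They deposited raw counts, 1 table per cell fraction and day, and 0 columns lacked a sample. A line without a gene name in both CD45+ tables was left out. Groups came from the sample labels. The members and gene lists were chosen with earlier results of these data known.

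Genes passing edgeR's filterByExpr (minimum count 10, total 15) were tested with edgeR 4.0.16 in R 4.3.3, using TMM factors and its quasi-likelihood test; p-values were adjusted over all genes tested (Benjamini-Hochberg, threshold 0.05). Each table was fitted with its 3 groups; day and fraction comparisons used joint fits. The tests were checked on simulated data. Named were the 9 members, up to 4 higher and 4 lower list genes per CD45+ comparison by log2 difference, 8 fixed genes and the 5 genes most like Retnla. Marker-relative levels were log2(CPM + 1), tested by exact permutation. Alternatives were DESeq2 1.42.0, library totals, no filter, a replicate block, the 2 groups alone and each library left out.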

Additional observations from a re-analysis of the deposited data

Results flagged for a closer look

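Of 35 groups of 4 to 10 CD45+ libraries of single members, 6 held a library whose gap to the rest passed Dixon's 95% limit, taken on CPM without a log. The limit flags about 5% only where values are normally spread, which was not checked. All 6 were the highest library of their group, so no excess over chance is read. Arg1 (2185 CPM) and Mrc1 (162 CPM) stood out in treated replicate 3 of day 3. Clec10a (162 CPM) and Mgl2 (201 CPM) stood out in abscopal replicate 1 of day 7. Retnla (139 CPM) stood out in abscopal replicate 5 of day 3 and Il4ra (264 CPM) in abscopal replicate 1 of day 3. Between days, 5 genes of the alternative activation list had a treated effect that differed by the interaction term of the edgeR fit: Chil1 by -4.41 (adjusted p = 0.0140), Csf1 by -2.87 (adjusted p = 0.0271), Ptgs1 by -2.74 (adjusted p = 0.0271), Tgm2 by -1.40 (adjusted p = 0.00926) and Klf4 by -1.01 (adjusted p = 0.0444), day 7 minus day 3 on the log2 scale.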

How the results depend on the processing

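Of 930 member differences recomputed with a library left out, 914 were unchanged, as were 266 of 277 under other alternatives. Where a test was made, unchanged means the same call and direction. For CD45+ cells of day 3, which have no test, it means a shift smaller than the SD between libraries, and calls were not compared. Within that limit the direction turned for 4 of the 914 and 3 of the 266. Retnla in treated against control CD45+ cells of day 3 ranged from 3.58 to 4.67 with each library left out. Without the filter on low counts edgeR's standard errors shrank (Retnla, treated against control at day 7, 0.17), the cause was not tested, and more calls appeared. Members called were then 5 for abscopal against control and 5 for treated against abscopal at day 3, 2 for treated and 1 for abscopal against control at day 7, 1 in each of the CD45- comparisons treated at day 3, treated at day 7 and abscopal at day 7, and 1 between control days. List genes called higher were then 2 and 16 at day 3 (abscopal against control, treated against abscopal) and 2 and 4 at day 7 (treated, abscopal against control). DESeq2 called 1 list gene for abscopal against control at day 3. For treated against abscopal at day 3, library totals and the fit of the 2 groups alone each called 1 member, and the latter 5 list genes. With each library left out, list genes called ranged from 6 to 12 for treated against control and from 4 to 13 for treated against abscopal at day 3, members called from 1 to 4 for treated against abscopal, and from 0 to 1 for Il4ra in CD45- treated and in CD45- abscopal tumors of day 7.

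With a library left out, treated against control at day 3 turned for Arg1 (-0.61 to 0.82) and Clec10a (-0.00889 to 0.324). At day 7 the directions that turned, none past the threshold, were those of Chil3 (-0.40 to 0.37) and Il4ra (-0.033 to 0.075) for treated against control, Mrc1 (-0.027 to 0.64) and Mgl2 (-0.22 to 0.52) for abscopal against control, and Retnla for treated against abscopal (-1.13 to 1.32, relative to macrophage markers -0.36 to 1.44). Over all genes, treated against control at day 3 gave 801 calls, 451 with the 2 groups alone, 1244 without the filter and 334 to 1103 with a library left out. Treated against abscopal gave 558, 365, 1022 and 264 to 862.

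Same-numbered libraries had deviations with r over 0.1 in every pair for none of 12 group pairs, which cannot exclude that some shared a mouse. In CD45+ cells of day 7, all 3 same-numbered abscopal and treated pairs were best matches (r from 0.086 to 0.336). The labels do not say that equal numbers are 1 mouse, and the replicate block rests on those numbers. With the replicate block, 1256 genes were called for treated against control at day 3, and at day 7 Arg1 turned to 0.27 (treated) and 0.19 (abscopal against control) and Il4ra to -0.00363 (treated). Few libraries at day 7, 3 treated and 4 abscopal, and Retnla counts as low as 3 limit what could be detected.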
